A study of Mus musculus with 6 samples.

Results

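The genes described here are the ErbB receptor tyrosine kinases and their growth factor ligands: the receptors Egfr, Erbb2, Erbb3 and Erbb4, the neuregulins Nrg1 and Nrg2, and the ligands Hbegf, Areg, Ereg and Tgfa. They were taken by symbol from a table of read counts, and all 10 were found among its 45703 genes. The samples were 6 mixed primary cultures of dorsal root ganglia, the clusters of sensory neurons and their glia beside the spinal cord. The mice were adult (4 to 6 weeks), of the strain C57BL/6 and wild type, and the cells were kept for 7 days in vitro. Every culture received the same medium, which held 10% fetal calf serum, EGF (10 ng/ml) and FGF (10 ng/ml), so all 6 belonged to 1 group and all had been exposed to a ligand of Egfr. Each sample pooled RNA from 2 dishes, and poly-A RNA was sequenced. Bulk RNA cannot tell fewer cells of a type from less RNA per cell.

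ErbB receptors signal as pairs. Egfr binds EGF-like ligands and is an active kinase, Erbb2 binds no known ligand and serves as the partner of the others, Erbb3 binds neuregulins but has an impaired kinase and signals through its partner, and Erbb4 binds neuregulins and some EGF-like ligands with an active kinase. In peripheral nerve, neuregulin 1 on axons acts on the Erbb2 and Erbb3 pair of Schwann cells and controls their survival, division and myelination. The EGF-like ligands are made as membrane proteins and released by proteases.

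The 6 libraries held 20070639 to 22968642 counts. Levels are given as CPM, the count of a gene scaled to its library total in the usual way, and, to compare genes with each other, as CPM per kb of combined exon length. The 8 genes used as glial lineage markers and the 12 used as neuron markers were all above 1 CPM in every library. So were the 6 fibroblast markers, whose summed level was lowest in replicate 1 (3338 CPM) and highest in replicate 5 (13967 CPM). The labels call the samples biological replicates but do not say which animals each came from, so the tests measure the spread between these samples, which may be partly technical.

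Transcripts of 3 receptors and 3 ligands were detected throughout. Egfr, Erbb2, Erbb3, Nrg1, Hbegf and Tgfa, 6 of the 10 genes, had at least 1 CPM in all 6 libraries, against 30.4% of all genes of the table. Nrg2, Areg and Ereg had more than 3 counts in every library but fell under 1 CPM in at least 1 of them. Erbb4 had between 0 and 5 counts. By mean CPM per kb the order was Erbb3, Hbegf, Erbb2, Egfr, Tgfa, Ereg, Areg, Nrg1, Nrg2 and Erbb4. Neighbours in this order did not all differ beyond their spread between cultures, as given below.

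**Figure D1:**
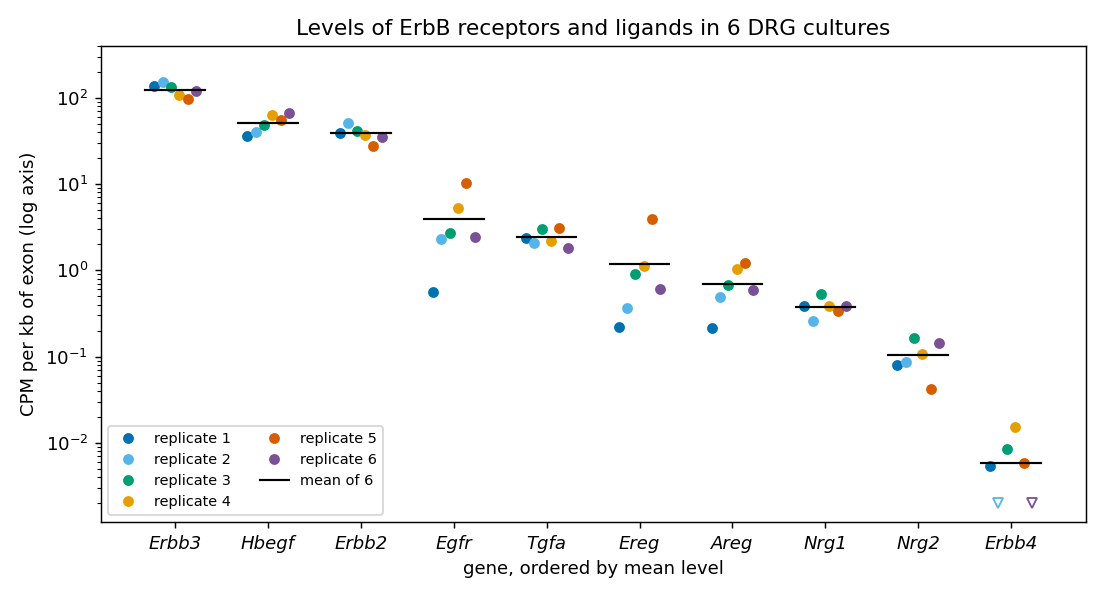
Level of each of the 10 genes in CPM per kb of combined exon length on a log axis, with a dot for each of the 6 cultures and a line at their mean; open triangles at the bottom stand for the 2 libraries with 0 Erbb4 counts. Erbb3, Hbegf and Erbb2 stay above 27 CPM per kb in every culture, whereas Egfr and Ereg spread widely, with replicate 1 lowest and replicate 5 highest.

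Erbb3 was the most abundant receptor transcript. This gene (gene ID 13867, chromosome 10, 128567523 to 128589635, minus strand, GRCm38.p6) had 579 CPM in its lowest library, replicate 5, a median of 761 CPM and 905 CPM in its highest, replicate 2. Its mean was 125 ± 20.1 CPM per kb (SD, n = 6), above 97.3% of the 14998 genes kept by the filter on low counts. The highest and lowest cultures thus differed 1.56-fold, a narrow range for this family.

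Erbb2 (gene ID 13866, chromosome 11, 98412484 to 98437716, plus strand) ranked next among the receptors. It ranged from 137 CPM in replicate 5 through a median of 191 CPM to 256 CPM in replicate 2, so the same cultures were lowest and highest as for Erbb3. Its mean level was 38.7 ± 7.86 CPM per kb (SD, n = 6), above 88.5% of the genes kept. The gene overlaps the oppositely directed gene Mien1, which averaged 25.5 CPM, and whether the counting used strand is not given in the sources used here. Within each library Erbb2 stood 1.70 below Erbb3 on the log2 scale (mean difference -1.70 ± 0.13, SD, n = 6), and it was lower in 6 of 6 libraries. The ratio of Erbb2 to Erbb3 per kb held between 0.282 and 0.346.

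Egfr, the receptor for the EGF in the medium, was lower and far less even. The gene (gene ID 13649, chromosome 11, 16752203 to 16913907, plus strand) had 3.66, 14.8, 17.6, 33.9, 66.8 and 15.6 CPM in replicates 1 to 6. Replicate 1 lay well below and replicate 5 well above the other 4 cultures, an 18.3-fold range. The mean was 3.95 ± 3.49 CPM per kb (SD, n = 6), above 35.5% of the genes kept. Without length correction it was 25.4 CPM, and 17.1 CPM when replicate 5 was left out. Egfr was below Erbb2 in 6 of 6 libraries, by 5.87 on the log2 scale in replicate 1 but by 1.39 in replicate 5 (mean difference -3.70 ± 1.51, SD, n = 6). It was also below Erbb3 in all 6 (mean difference -5.39 ± 1.53).

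Erbb4 (gene ID 13869, chromosome 1, 68031884 to 69108576, minus strand) had 2, 0, 3, 5, 2 and 0 counts in replicates 1 to 6. Only replicate 4 exceeded the 3 counts that a count of 0 allows, which correspond to 0.131 to 0.149 CPM in these libraries. Erbb4 transcripts were therefore at the limit of detection at this depth, where counting error alone is considered. It was the lowest receptor in all 6 libraries, and it lay below Nrg2, its neighbour in the order, in all 6 as well (mean log2 difference of Nrg2 from Erbb4 0.92 ± 0.33, SD, n = 6, set in part by the pseudocount of 0.1).

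All 6 pairs of receptors differed in level in the same direction in 6 of 6 libraries. Each gave a two-sided exact sign-flip permutation p = 0.0312, the smallest that 6 libraries can give, and an adjusted p = 0.0312 over the 10 pairs compared (6 of receptors, 4 of ligands). All 10 pairs gave this smallest p, so the adjustment left it unchanged. The pairs with Erbb4 set a gene at the limit of detection against detected ones, so they add little. As shares of the summed receptor level per kb, Erbb3 made up 74.4% ± 2.43, Erbb2 22.97% ± 1.82 and Egfr 2.62% ± 2.71 (SD, n = 6). The Egfr share was 0.318% in replicate 1 and 7.73% in replicate 5. The summed level of the 4 receptors was 167 ± 24.6 CPM per kb, with the lowest sum, 134, in replicate 5.

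**Figure D2:**
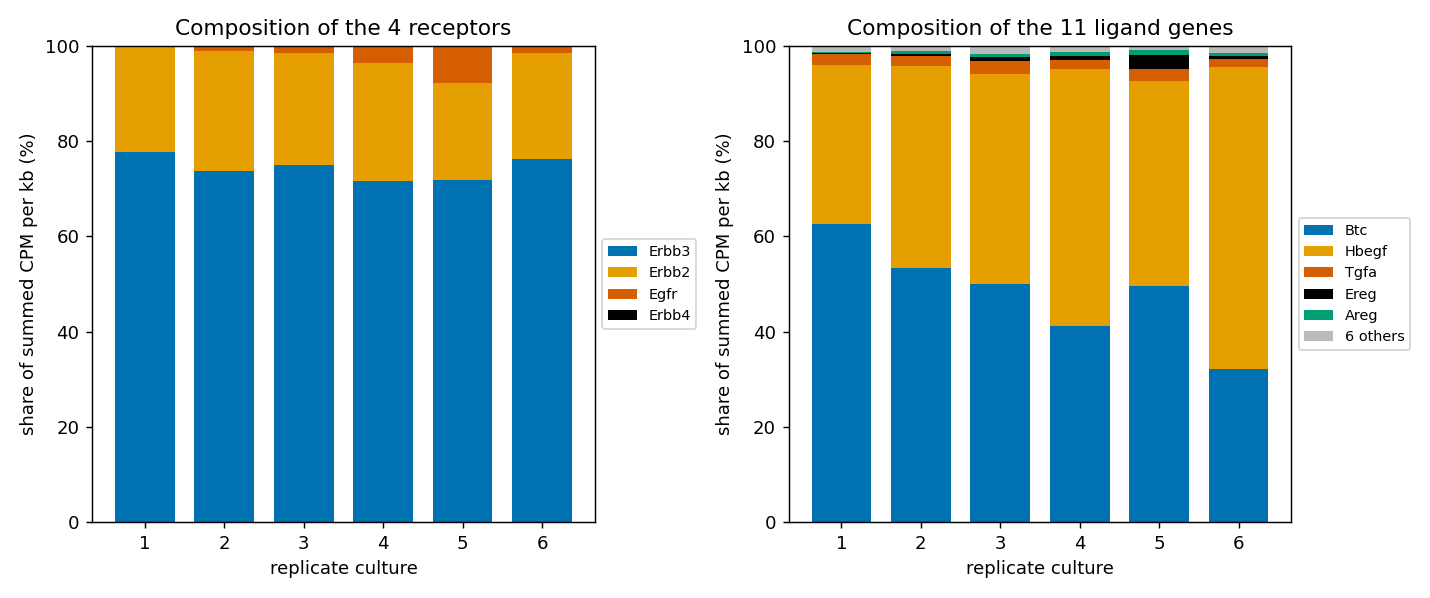
Stacked shares of the summed CPM per kb in each of the 6 cultures, for the 4 receptors (left) and for the 11 ligand genes of the family (right), where 6 others are Nrg1, Nrg2, Nrg3, Nrg4, Egf and Epgn together. Erbb3 takes 71.7% to 77.8% of the receptor sum, and Btc and Hbegf together take most of the ligand sum in every culture.

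The neuregulins, the ligands of Erbb3 and Erbb4, were low. Nrg1 (gene ID 211323, chromosome 8, 31807452 to 32891609, minus strand) ranged from 6.65 CPM in replicate 2 through a median of 9.92 CPM to 13.8 CPM in replicate 3. Per kb this was 0.380 ± 0.0899 CPM (SD, n = 6), above 4.18% of the genes kept. The combined exons of Nrg1 span 25868 bases, the longest of the 10 genes, against 2100 bases for its longest coding sequence in GENCODE M21, where 12 coding transcripts are annotated. A level per combined exon length therefore understates a gene whose transcripts each use few of its exons, and the counts do not separate the forms.

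Nrg2 (gene ID 100042150, chromosome 18, 36014581 to 36197532, minus strand) ranged from 0.525 CPM in replicate 5 through a median of 1.22 CPM to 2.03 CPM in replicate 3, which rest on 11 to 44 counts. It overlaps the oppositely directed gene Psd2, which averaged 1.18 CPM. Nrg1 exceeded Nrg2 per kb in 6 of 6 libraries by 1.24 ± 0.26 on the log2 scale (SD, n = 6), with an exact sign-flip permutation p = 0.0312 and an adjusted p = 0.0312. The size of this difference was set in part by the pseudocount of 0.1, since Nrg2 averaged 0.104 CPM per kb. With no pseudocount the ratio per kb was 2.69 to 7.97, with a median of 3.42. The mean log2 difference was 0.32 with a pseudocount of 1 and 2.90 with no length correction. Replicate 3 was the highest culture for both neuregulins.

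Hbegf, heparin-binding EGF-like growth factor, was the main ligand among the 10 genes. It lies on chromosome 18 (gene ID 15200, 36504927 to 36515805, minus strand) and ranged from 84.9 CPM in replicate 1 through a median of 123 CPM to 158 CPM in replicate 6. Its mean was 51.6 ± 12.5 CPM per kb (SD, n = 6), above 91.7% of the genes kept. Hbegf and Erbb2, its neighbour in the order, did not differ beyond their spread (mean log2 difference 0.40 ± 0.58, Hbegf higher in 4 of 6 libraries). Erbb3 stood above Hbegf in 6 of 6 libraries, by 1.29 ± 0.56.

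Tgfa, transforming growth factor alpha, another ligand of Egfr, was lower and fairly even. The gene (gene ID 21802, chromosome 6, 86195038 to 86275744, plus strand) ranged from 8.65 CPM in replicate 6 through a median of 10.8 CPM to 14.9 CPM in replicate 5, a 1.72-fold range. Its mean of 2.44 ± 0.529 CPM per kb did not differ from that of Egfr beyond the spread (mean log2 difference of Egfr from Tgfa 0.24 ± 1.26, Egfr higher in 4 of 6 libraries, SD, n = 6). Hbegf exceeded Tgfa by 4.34 ± 0.51 on the log2 scale in 6 of 6 libraries.

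Ereg and Areg, epiregulin and amphiregulin, lie side by side on chromosome 5 and both encode Egfr ligands. Ereg (gene ID 13874, 91074617 to 91093649, plus strand) had 0.914, 1.503, 3.79, 4.68, 16.1 and 2.53 CPM in replicates 1 to 6. Areg (gene ID 11839, 91139599 to 91148432, plus strand) had 0.261, 0.592, 0.831, 1.25, 1.48 and 0.717 CPM, from only 6 to 31 counts. Both were lowest in replicate 1 and highest in replicate 5, as Egfr was, with a 17.7-fold range for Ereg and 5.67-fold for Areg. The mean of Ereg, 4.93 CPM, fell to 2.68 CPM without replicate 5. Ereg exceeded Areg in 5 of 6 libraries per kb, by less than the spread on average (mean log2 difference 0.31 ± 0.68, SD, n = 6). Areg in turn was above Nrg1 in 5 of 6 (0.62 ± 0.77), a direction that turned under both other lengths, and Tgfa above Ereg in 5 of 6 (1.47 ± 1.13). Hbegf exceeded Areg by 6.11 ± 0.52 and Ereg by 5.81 ± 1.10, both in 6 of 6 libraries. The differences of Hbegf from Tgfa, Areg and Ereg each had an exact sign-flip permutation p = 0.0312 and an adjusted p = 0.0312.

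The regions upstream of Egfr and Areg are shown because these genes shared their lowest and highest cultures and had an entry in the RefSeq promoter table, which held 5 of the 10 genes. Each run is the 250 bases before the annotated start on the plus strand of GRCm38.p6, at chr11:16751953-16752202 for Egfr and chr5:91139349-91139598 for Areg. Capitals mark matches on either strand to TGANTCA (an AP-1 site), TGACGTCA (a full cyclic AMP response element), GGGCGG (a GC box) and GGAATG (a TEAD site).
Egfr: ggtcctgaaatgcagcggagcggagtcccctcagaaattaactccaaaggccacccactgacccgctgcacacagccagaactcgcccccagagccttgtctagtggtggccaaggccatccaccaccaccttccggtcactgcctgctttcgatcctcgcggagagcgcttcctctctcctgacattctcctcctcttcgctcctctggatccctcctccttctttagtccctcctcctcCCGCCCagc
Areg: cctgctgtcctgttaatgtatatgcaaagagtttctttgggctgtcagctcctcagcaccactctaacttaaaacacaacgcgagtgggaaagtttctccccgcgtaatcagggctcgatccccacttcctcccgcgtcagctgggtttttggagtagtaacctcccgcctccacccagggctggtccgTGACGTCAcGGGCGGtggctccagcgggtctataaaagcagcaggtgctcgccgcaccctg
The Egfr run held 1 GC box, whose first base lay 9 bases before the start. The Areg run held 1 cyclic AMP response element beginning 61 bases before the start and 1 GC box beginning 52 bases before it, with no overlap between them. Among 32851 promoter entries, 1.55% held TGACGTCA in the same window, 32.7% GGGCGG, 6.75% TGANTCA and 12.6% GGAATG. The 2 runs shared no motif other than the GC box. A match of letters is a description and does not show that a factor was bound.

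The ligand list of the family is completed by 5 further genes, and 1 of these, Btc, stood level with Hbegf per kb of combined exon length. Btc encodes betacellulin, which binds Egfr and Erbb4. It lies in the cluster of Epgn, Ereg, Areg and Btc on chromosome 5 (91027517 to 91402994) at 91357261 to 91402994. Btc had 192, 145, 157, 141, 182 and 96.7 CPM in replicates 1 to 6, so replicate 6 was lowest and replicate 1 highest. Its mean was 52.9 ± 11.8 CPM per kb, and it differed from Hbegf by 0.04 ± 0.65 on the log2 scale (SD, n = 6), higher in 4 of 6 libraries. With no length correction Btc averaged 152 CPM and Hbegf 123 CPM. The longest coding sequence has 531 bases for Btc and 624 for Hbegf. With the higher mean CPM and the shorter length, Btc also had the higher mean per kb of it. The size of that difference was not computed. The 2 genes had opposite extremes, since Hbegf was lowest in replicate 1 and highest in replicate 6.

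The other 4 further ligands were low. Nrg3 averaged 4.47 ± 1.30 CPM and exceeded Nrg1 per kb in 6 of 6 libraries, by 0.43 ± 0.16 on the log2 scale (SD, n = 6). That direction rests on the long combined exons of Nrg1: with no length correction, and per kb of longest coding sequence (4.68 against 2.09 CPM per kb), Nrg1 was above Nrg3 in 6 of 6 libraries. Egf itself averaged 0.871 ± 0.264 CPM from 10 to 26 counts. Epgn had 1 to 10 counts and Nrg4 0 to 8. Over all 11 ligand genes, Btc took 48.1% ± 10.4 and Hbegf 46.8% ± 10.4 of the summed level per kb (SD, n = 6).

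Variation between cultures exceeded counting noise for the 8 of the 10 genes that passed the filter on low counts, which left out Erbb4 and Areg. All 8 had a chi-square adjusted p-value under 0.05 over 14998 genes, where 76.3% of genes had one, so the count alone says little about this family. Without the filter 9 of the 10 had one, Areg added and Erbb4 not, where 50.2% of 26854 genes did. The weakest of the 8 was Nrg2 (chi-square test over all genes, adjusted p = 3.22e-04). The sizes of the spread separated the genes more clearly. Egfr had an SD of log2 CPM of 1.33 and Ereg of 1.23, larger than in 99.3% and 98.9% of the genes kept. The other 6 ranged from 0.253 for Erbb3, at percentile 71.2, to 0.467 for Nrg2, at percentile 91.2, and the median over all genes kept was 0.165. In edgeR's quasi-likelihood fit, the residual dispersion of Egfr was 82.0 times, and that of Ereg 34.9 times, the trend at its abundance.

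The cultures in which Egfr was high were those with high levels of fibroblast markers. Egfr and the score of the fibroblast list, the mean log2 CPM of Col1a1, Col1a2, Col3a1, Pdgfra, Dcn and Lum, had Pearson's r = 0.98 over 6 libraries (exact permutation p = 0.00417, adjusted p = 0.0167 over 6 relations). Spearman's rho was 0.94 (exact permutation p = 0.0167, adjusted p = 0.0875), and r was 0.98 after leaving out replicates 1 and 5, whose scores lay farthest from the median. The 6 marker genes summed to 3338, 6062, 4429, 7446, 13967 and 4799 CPM in replicates 1 to 6. The lists and all 6 relations were chosen with earlier results of these data known, so the p-values may overstate the evidence.

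Summed markers of other non-neural cells had their extremes in the same cultures. The summed macrophage list (8 genes, 5 above 1 CPM in every library) was 14.5 CPM in replicate 1 and 158 CPM in replicate 5. The endothelial list (6 genes, 2 above 1 CPM in every library, Cldn5 at 0 in some) ran from 8.14 to 116 CPM, and the mural list (6 genes, 5 above 1 CPM in every library) from 179.6 to 1645 CPM, between the same replicates. Between these extremes the lists did not all run alike. In replicate 6 the mural score stood at 0.74 from its mean and the fibroblast score at -0.45. In replicate 3 the macrophage score stood at 0.82 and the fibroblast score at -0.20. In replicates 1 to 6 the endothelial score stood at -0.85, -0.52, -0.35, 0.18, 1.82 and -0.28. The fibroblast score stood at -1.47, -0.22, -0.20, 0.79, 1.56 and -0.45. Relations of Egfr with the macrophage, endothelial and mural lists were not computed, so these values do not single out the fibroblast list. The part of any of these cell types in the Egfr level was not tested. Lowest in replicate 1 and highest in replicate 5 was a common pattern, shown by 12.9% of the genes kept.

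**Figure D3:**
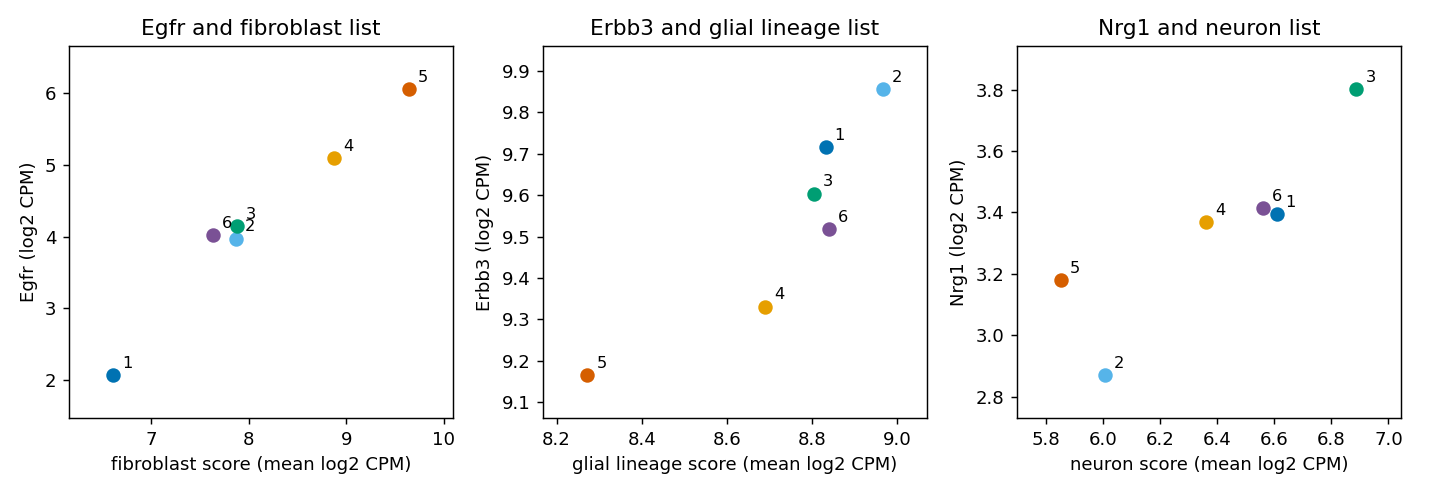
Each panel plots log2 CPM of a gene against the mean log2 CPM of a marker list, with a dot per culture labelled by its replicate number. Egfr rises with the fibroblast score over all 6 cultures, Erbb3 follows the glial lineage score with replicate 5 lowest, and Nrg1 follows the neuron score with replicate 3 highest.

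Erbb3 followed the glial lineage list of 8 genes, among them Sox10, Cdh19 and Ngfr, from which Erbb3 was left out. Pearson's r was 0.90 (exact permutation p = 0.00556, adjusted p = 0.0167) and the rank correlation rho 0.83 (exact permutation p = 0.0583, adjusted p = 0.0875), and r was 0.83 without replicates 2 and 5. The summed glial list was lowest in replicate 5 (5114 CPM) and highest in replicate 1 (7464 CPM). Of its genes only Ngfr was not lowest in replicate 5, where it had 1106 CPM. Ngfr was lowest in replicate 6 (679 CPM), so the list genes did not all run alike. Nrg1 followed the neuron list of 12 genes, with r = 0.87 (exact permutation p = 0.0222, adjusted p = 0.0444) and rho = 0.89 (exact permutation p = 0.0333, adjusted p = 0.0875), and r was 0.90 without replicates 2 and 5. This call was lost with the summed CPM of the list in place of its mean log2 level (r = 0.80, exact permutation, adjusted p = 0.0917) and with a pseudocount of 5 in place of 0.5 (r = 0.86, exact permutation, adjusted p = 0.0528). The summed neuron list was lowest in replicate 5 (1110.5 CPM) and highest in replicate 3 (2417 CPM).

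The remaining 3 relations did not pass by Pearson's r, the measure on which passing is judged here (adjusted p under 0.05). By rank correlation none of the 6 relations passed, the lowest adjusted p from exact permutation being 0.0875. Egfr with the glial list gave r = -0.73 and rho = -0.83 (exact permutation p = 0.128 and 0.0583, adjusted p = 0.153 and 0.0875), and r was -0.71 without replicates 2 and 5. It passed when the list was summed (r = -0.90, exact permutation, adjusted p = 0.0417). Erbb3 with the fibroblast list gave r = -0.81 and rho = -0.71 (exact permutation p = 0.0542 and 0.136, adjusted p = 0.0812 and 0.163), and r was -0.65 without replicates 1 and 5. Nrg1 with the glial list gave r = 0.024 and rho = -0.029 (exact permutation p = 0.960 and 1, adjusted p = 0.960 and 1), and r was 0.20 without replicates 2 and 5. The values are shares of the same libraries, so a rise of some genes lowers others. The labels give no batch within which to recompute these relations.

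Some genes had profiles across the 6 cultures very close to those of Egfr, Erbb3 and Nrg1, the genes for which this was computed. Likeness was measured as the root mean square difference between the log2 CPM deviations of a pair of genes from their own means, among 11943 other genes with at least 5 CPM on average. For Egfr the nearest were Igfbp6 (0.0775), Adamts6 (0.0842), Colec12 (0.1003), Fgf7 (0.103) and Ripk3 (0.105), against a median of 1.23 over all genes. Igfbp6, an insulin-like growth factor binding protein, had 2.05 CPM in replicate 1 and 43.8 CPM in replicate 5. Ereg lay at 0.464 from Egfr, with 1.38% of genes closer, and Areg at 0.784, with 3.40% closer. Both average less than the 5 CPM set for the other genes. The likeness used log2(CPM + 0.5), so the distance of Areg, at 0.261 to 1.48 CPM, was set in part by this pseudocount. For Erbb3 the nearest were Dyrk1b, Serac1, Tspan14, Dpysl4 and Ypel3, at 0.0416 to 0.0444 against a median of 0.256. For Nrg1 they were Frmd3, Osbpl3, Kcnab2, Prkag2 and Unc13a, at 0.0414 to 0.0641 against a median of 0.319.

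The machinery around the receptors was expressed throughout. All 6 genes for processing of ligands and receptors, all 9 listed as negative regulators and all 18 adaptors and kinases were detected. Each had at least 1 CPM in every library and varied beyond counting noise, where 76.3% of the genes tested did so. Among the processing genes, Adam10, a protease that sheds ligands such as betacellulin, was highest at 223 ± 37.8 CPM per kb, and Rhbdf2, a partner of the protease Adam17, was lowest at 10.9 ± 2.47 (SD, n = 6). These were also the 2 with the largest SD of log2 CPM, 0.257 and 0.340. Among the adaptors and kinases, the ERK kinase Mapk3 was highest at 260 ± 20.5 CPM per kb, and the phospholipase Plcg1 was lowest at 6.09 ± 1.67. Plcg1 and the adaptor Shc1 varied most in that list, with an SD of log2 CPM of 0.334 and 0.300 against a list median of 0.0988, and both were highest in replicate 5.

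The feedback inhibitor of the receptors, Errfi1, varied most of all 33 of these genes. Errfi1 encodes a protein that binds and inhibits the Egfr kinase and is known as a target of ERK signalling. It had 15.1, 38.7, 43.2, 77.8, 197 and 39.0 CPM in replicates 1 to 6, a 13.1-fold range, with replicate 1 lowest and replicate 5 highest as for Egfr. Its SD of log2 CPM was 1.21, larger than in 98.8% of the genes kept. The fibroblast score had the same lowest and highest cultures, and the cause of this shared pattern was not tested. Lrig3, of the leucine-rich repeat proteins that also include Lrig1, came next with an SD of 0.526 and ranged from 11.2 to 33.5 CPM between the same cultures. The name negative regulators is a label, and whether each of the 9 genes so listed restrains the receptors here was not tested. Lowest in replicate 1 and highest in replicate 5 were 12.9% of all genes kept. Of the 9 listed genes, 4 (Errfi1, Lrig1, Lrig3 and Cblb) had both extremes. The same held for 2 of the 4 EGF ligands and 1 of the 4 receptors, but for 0 of the 2 neuregulins, 0 of the 5 further ligands, 0 of the 6 processing genes and 1 of the 18 adaptors and kinases. Among markers it held for 5 of 6 fibroblast, 6 of 8 macrophage, 3 of 6 endothelial and 3 of 6 mural genes, and for none of the glial and neuron genes. Highest per kb in this list was Errfi1 at 20.4 ± 19.7, a rank that rests on replicate 5: without that culture its mean was 12.7, below Socs5 at 14.4, and Socs5 was above it in 4 of 6 libraries. Lowest was the ubiquitin ligase gene Cblb at 2.91 ± 0.943 (SD, n = 6).

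**Figure D4:**
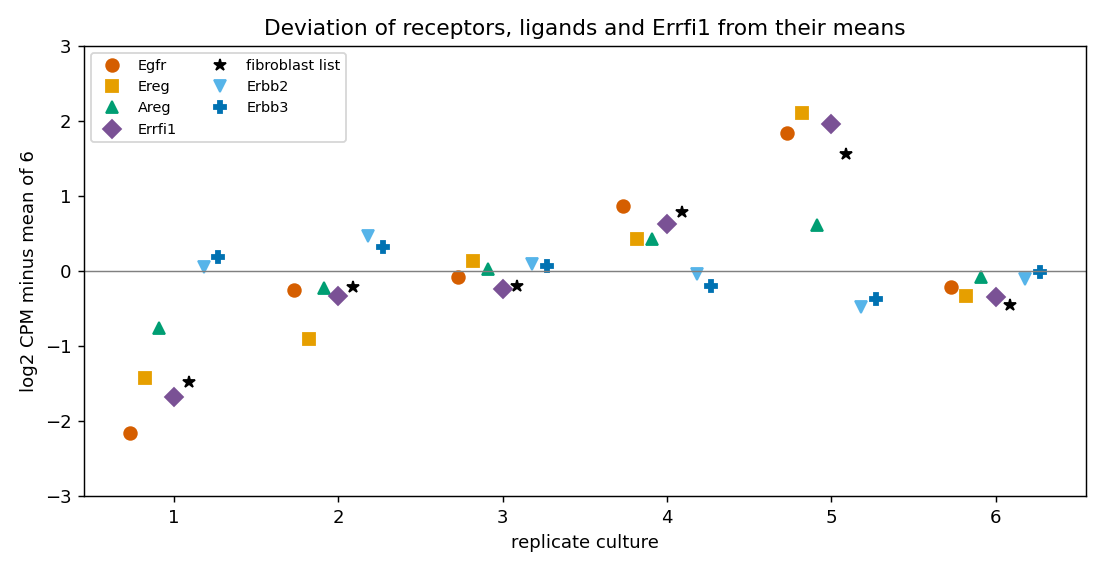
Deviation of each gene's log2(CPM + 0.5) (TMM-scaled) from its own mean over the 6 cultures, for Egfr, Ereg, Areg, Errfi1, Erbb2 and Erbb3, and of the fibroblast list score from its mean. The added 0.5 narrows the spread of Areg, which had 0.261 to 1.48 CPM. Egfr, Ereg, Areg, Errfi1 and the list lie lowest in replicate 1 and highest in replicate 5, whereas Erbb2 and Erbb3 lie lowest in replicate 5.

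The order of levels depended on the length used. Levels per kb of the longest coding sequence were a measure added after the data were seen. By it Hbegf was highest of the 10 genes at 197 ± 47.6, above Erbb3 at 186 ± 30.0. Egfr fell from rank 4 to rank 6 of the 10, below Tgfa and Ereg. Without any length correction Erbb2 was above Hbegf. Nrg1 was above Areg under both, at 4.68 against 1.15 CPM per kb of coding sequence and at 9.83 against 0.855 CPM. Erbb3 stayed above Erbb2, Egfr and Erbb4, in that order, under each of these lengths, and Hbegf stayed the highest of the 6 ligand members.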

How the data were processed

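The data were 1 table of estimated counts per gene for 6 RNA-seq libraries, deposited by the authors without scaling; 13.4% to 14.7% of its cells per library were fractions. No per-sample column was left unused (0). The submitters' processing notes name bcl2fastq 2.20.0.422, cutadapt 2.5, STAR 2.7.2b, featureCounts 1.6.4 and GRCm38.p6. Their settings, the strand setting and the handling of reads that match several genes are not given in the sources used here. All 45703 gene identifiers matched RefSeq of GRCm38.p6. Among the members, Erbb3 had a fractional count in 2 libraries and Hbegf in 1.

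The table also holds, as deposited by the authors, a combined exon length per gene in bases. CPM used the column totals, and CPM per kb that length. In R 4.3.3, rounded counts went into edgeR 4.0.16, where filterByExpr kept 14998 genes and TMM scaled the libraries; DESeq2 1.42.0 gave alternative size factors. The chi-square test compared the 6 counts of each gene with scaled library sizes, adjusted by Benjamini-Hochberg over all genes kept, and was tested on simulated data. Differences of log2(CPM per kb + 0.1) within libraries were tested by exact sign-flip permutation over 64 patterns, two-sided. List scores and relations used log2(CPM + 0.5) with TMM scaling and exact permutation over 720 pairings (NumPy 2.4.6).

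The 10 members, the pathway and marker lists and the tests were chosen with earlier results of these data known. Named genes were the members, all further ligands, the extremes of the other pathway lists, and the 5 nearest profiles to Egfr, Erbb3 and Nrg1. Igfbp6 was singled out among these after its values were seen. The glial score includes 2 genes that are not reported here by name or value. The alternatives varied library scaling, the filter, the pseudocount, the length, the list score, the detection rule and the libraries included.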

Additional observations from a re-analysis of the deposited data

Results flagged for a closer look

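In 25 measures (CPM of the 10 genes and the 5 further ligands, and the shares of the receptor and ligand sums), the distance of the most extreme culture from the next one was taken as a share of the whole range and set against Dixon's 95% critical value for 6 samples. The share lay above it in 3 measures. By chance 1.25 would be expected (about 1 in 20), and the measures are not independent. In all 3 the culture standing apart was replicate 5.

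Ereg had 16.1 CPM in replicate 5 and 4.68 CPM in the next culture, a gap over range of 0.753. The Ereg share of the 6 ligand members was 6.12% there and 1.71% in the next culture, a ratio of 0.794. Nrg4 had 0.382 CPM (8 counts) in replicate 5 and 0.0498 CPM (1 count) in the next, a ratio of 0.870. The fibroblast, macrophage, endothelial and mural lists were also highest in replicate 5, and their part in these values was not tested.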

How the results depend on the processing

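All 10 pairwise differences in level kept their direction and their side of the threshold with a pseudocount of 1, with no length correction and with the longest coding sequence. Leaving out each replicate kept every direction, as values only, since 5 libraries cannot reach p under 0.05. Over all tests, shares and counts, 201 of 217 alternative values were counted as keeping direction, side of the threshold or size. This count was lenient on size. It includes the members detected, which rose from 6 to 8 with at least 10 counts in all 6 libraries. Members detected were also 8 with at least 1 CPM in 3 libraries. The count also includes the low-count filter changes given next, and the Egfr and Ereg shares without replicate 5 given below. Relations with a replicate left out had no p-value, so no side of the threshold was checked for them. With no low-count filter 13488 genes varied beyond counting noise, against 11444, and 9 members instead of 8. The relation of Nrg1 with the neuron list no longer passed with a pseudocount of 5 (r = 0.86, exact permutation, adjusted p = 0.0528) or a summed list (r = 0.80, adjusted p = 0.0917), and that of Egfr with the glial list passed with a summed list (r = -0.90, adjusted p = 0.0417); the cause was not tested. Nrg1 with the glial list, near 0, became -0.030 with a summed list, -0.12 without replicate 3, -0.60 without replicate 5 and -0.0022 without replicate 6, within a range of -0.60 to 0.64 over the replicates left out.

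Shares moved with the length, by construction. Without length correction Erbb3 made up 77.2% and Erbb2 19.9% of the receptor sum, and Hbegf 80.9% and Tgfa 7.98% of the 6 ligand members. With the longest coding sequence, Erbb2 made up 20.8%, Hbegf 82.7% and Tgfa 10.7%. Over all 11 ligand genes, Hbegf was at 46.8% and Tgfa at 2.21%. The Egfr share of the receptor sum was 1.602% and the Ereg share of the 6 ligand members 1.13% without replicate 5, against 2.62% and 1.96%. The coding length from RefSeq proteins was not run. The GENCODE length, the sum over 11 ligand genes, the other lengths for Nrg3 and the means of the negative regulators without replicate 5 were added after seeing the data. No paired analysis was possible because there was 1 group. Depth limits Erbb4, Nrg4, Epgn, Egf and Areg, which rest on at most 31 counts per library.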
